A study of Homo sapiens with 9 samples.

Results

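The comparison of SIN3B siRNA with control siRNA in HEK293T cells was described across all expressed genes. Its members were the 3 libraries labelled as SIN3B knockdown and the 3 labelled as control, 6 of the 9 libraries of the series, and the other 3 libraries, from SIN3A siRNA, served as context. Of 58734 genes in the count table, 25662 had a count in at least 1 of the 6 libraries and 16216 passed the filter on low counts and were tested. HEK293T cells descend from human embryonic kidney and express the large T antigen of SV40. All groups, control included, received an Ambion Silencer Select siRNA at 10 nM with Lipofectamine RNAiMAX and were collected after 36 h, and poly-A selected, stranded libraries were made from total RNA. The groups were read from the sample titles, because the treatment text of every sample names the control siRNA. Neither the sequence of the siRNA nor the number of different siRNAs against SIN3B is given in the sources used here, and the comparison covers 1 dose and 1 time. The labels do not say whether the replicates were separate transfections. The p-values then reflect only how far these libraries scatter, and that scatter may be technical.

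SIN3B and its paralog SIN3A are scaffold proteins without DNA binding of their own. DNA-binding factors recruit them, and they carry histone deacetylases to promoters, where the removal of acetyl groups is linked to lower transcription. SIN3B is known above all from cell cycle exit, where it works with the DREAM complex, an assembly of MuvB proteins, E2F4 and pocket proteins that holds cell cycle genes silent in resting cells. HEK293T cells divide all the time, and large T antigen is known to bind the pocket proteins.

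SIN3B transcript (ENSG00000127511, chromosome 19, 16829400 to 16880353 on the plus strand of GRCh38) was at 101, 98.0 and 91.2 CPM in the 3 control libraries and at 59.5, 54.2 and 52.7 CPM in the 3 SIN3B knockdown libraries (CPM is the count divided by the library total on a scale of 1e6, after TMM scaling between libraries). The groups did not overlap, and 57.4% of the control level remained (log2 fold change -0.80 ± 0.07 SE, edgeR quasi-likelihood adjusted p = 1.04e-08). SIN3A was at 146 ± 4.1 CPM (SD, n = 3) in control and 146 ± 4.9 CPM in SIN3B knockdown libraries, with overlapping groups (edgeR adjusted p = 0.968). The total counts of the 9 libraries ranged from 22542798 to 27084884. In each library 98% or more of nonzero counts were multiples of 4, so a floor of 3 counting units amounts to 12 deposited counts per library. This floor was not used to filter genes. The first principal component of the 6 libraries held 38.2% of the variance and set control against SIN3B knockdown.

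Of all tested genes 32.8% changed, and most of the changes were small. Of 16216 genes, 2734 rose (16.9%) and 2583 fell (15.9%) at an edgeR adjusted p under 0.05, and the median log2 fold change over all genes was -0.01. The median size of a change was 1.32-fold for genes that rose and 1.37-fold for genes that fell. Changes of at least 2-fold were made up of 115 rises and 261 falls. The 9-library fit, which lets the more scattered SIN3A knockdown libraries enter the estimate of the spread, called 2005 rises and 1929 falls.

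**Figure D1:**
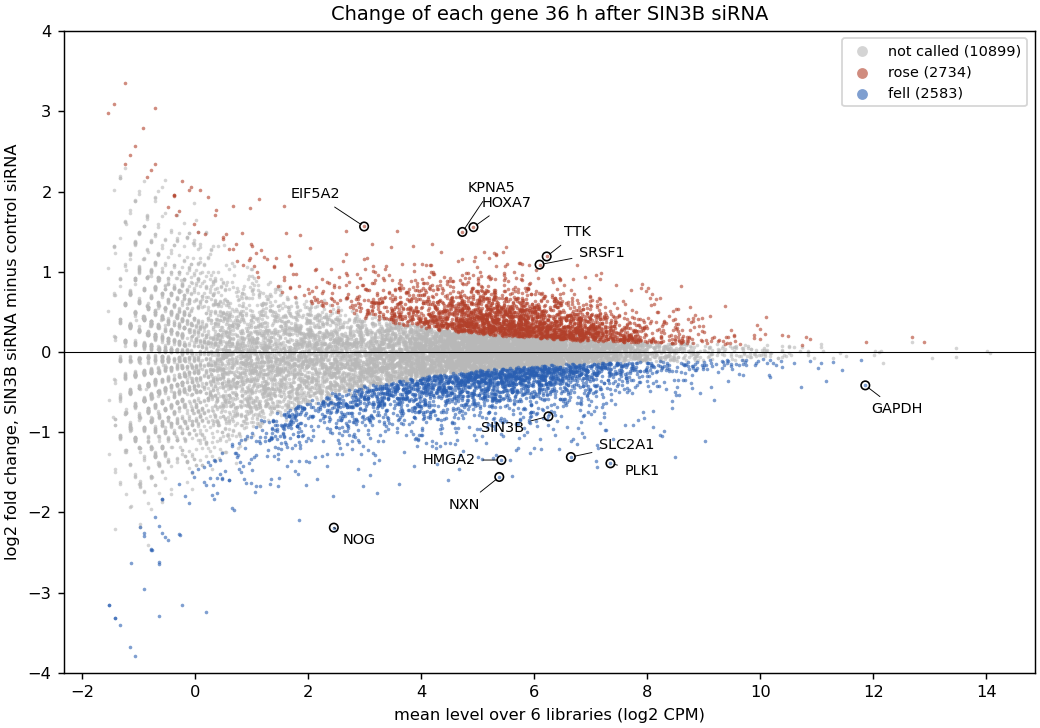
Mean level of each tested gene over the 6 libraries (x axis, log2 CPM) against its log2 fold change, SIN3B siRNA minus control siRNA (y axis). Red points are the 2734 genes that rose, blue points the 2583 that fell and grey points those not called; 3 genes of very low level lie beyond the axis limit of 4, and NOG, PLK1, HOXA7 and KPNA5 stand clear of the cloud.

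HOXA7, a homeobox factor of body patterning, was among the largest rises (chromosome 7, 27153716 to 27157936 on the minus strand). HOXA7 was at 16.6, 14.4 and 14.9 CPM in control libraries and at 45.8, 48.5 and 40.7 CPM in SIN3B knockdown libraries, a 2.94-fold rise (log2 1.56 ± 0.10, edgeR adjusted p = 1.3e-10). All 3 knockdown libraries lay far above the controls. KPNA5, an importin alpha that carries cargo into the nucleus, went from 14.7, 13.3 and 13.3 to 32.7, 43.5 and 40.4 CPM (log2 1.5 ± 0.11). EIF5A2, a close relative of the elongation factor eIF5A, went from 5.10, 2.85 and 3.86 to 9.99, 12.9 and 12.1 CPM (log2 1.57 ± 0.20).

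The other large rises spanned many functions. Above a mean of 1 log2 CPM they included the lipid kinase PI4K2B (1.51 ± 0.16), the ectoenzyme ENPP5 (1.5 ± 0.21), C2orf69 (1.35 ± 0.11) and the myosin heavy chain MYH15 (1.90 ± 0.36), all as log2 fold changes with their SE. Among genes above 5 log2 CPM the largest rises were those of RO60, an RNA-binding autoantigen (1.31 ± 0.11), GCC2, a Golgi tether (1.25 ± 0.14), ARHGAP5, a GTPase-activating protein (1.25 ± 0.08), and SYPL1 (1.23 ± 0.09). PRKAA1, a catalytic subunit of the energy sensor AMPK (1.22 ± 0.09), the mitotic kinesin KIF14 (1.21 ± 0.12), the checkpoint kinase TTK (1.19 ± 0.09) and REV3L, the catalytic subunit of a translesion DNA polymerase (1.17 ± 0.13), completed the 8. All of these had edgeR adjusted p of at most 0.00029, and their libraries did not overlap, which the rule for naming them required. Each of the 8 above 5 log2 CPM also rose after SIN3A siRNA in the 9-library fit, by 0.62 (RO60) to 1.02 (GCC2). ENPP5 rose there too (1.15), while PI4K2B, C2orf69 and MYH15 were not called.

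Among abundant transcripts the falls were larger than the rises. NXN, a thioredoxin family protein that binds Dishevelled, was at 62.2, 61.8 and 62.4 CPM in control and 24.7, 18.4 and 20.1 CPM in SIN3B knockdown libraries (log2 -1.56 ± 0.10). The kinase PAK4 went from 70.0, 75.6 and 71.5 to 25.4, 22.3 and 26.6 CPM (log2 -1.55 ± 0.08). DAG1, the matrix receptor dystroglycan, went from 206, 210 and 189 to 78.2, 70.5 and 75.5 CPM (log2 -1.43 ± 0.06). In each of these genes every knockdown library lay far below every control library.

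PLK1, a kinase needed to enter mitosis and build the spindle, went from 228, 241 and 237 to 92.3, 95.6 and 81.8 CPM (log2 -1.39 ± 0.06, edgeR adjusted p = 1.62e-13). MANF, a secreted protein of the endoplasmic reticulum stress response, went from 205, 195 and 187 to 79.8, 75.6 and 73.7 CPM (log2 -1.36 ± 0.06). The chromatin architectural protein HMGA2 (-1.35 ± 0.09) and the arginine methyltransferase PRMT3 (-1.34 ± 0.10) were also among the 8 largest falls above 5 log2 CPM. At lower levels NOG, the bone morphogenetic protein antagonist noggin, had the largest fall of a protein-coding gene above 1 log2 CPM, from 10.5, 6.80 and 9.49 to 2.31, 1.78 and 1.77 CPM (log2 -2.19 ± 0.23, edgeR adjusted p = 1.57e-07). CA12, a carbonic anhydrase (-1.80 ± 0.24), and SLC16A9, a monocarboxylate transporter family member (-1.76 ± 0.16), came next.

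**Figure D2:**
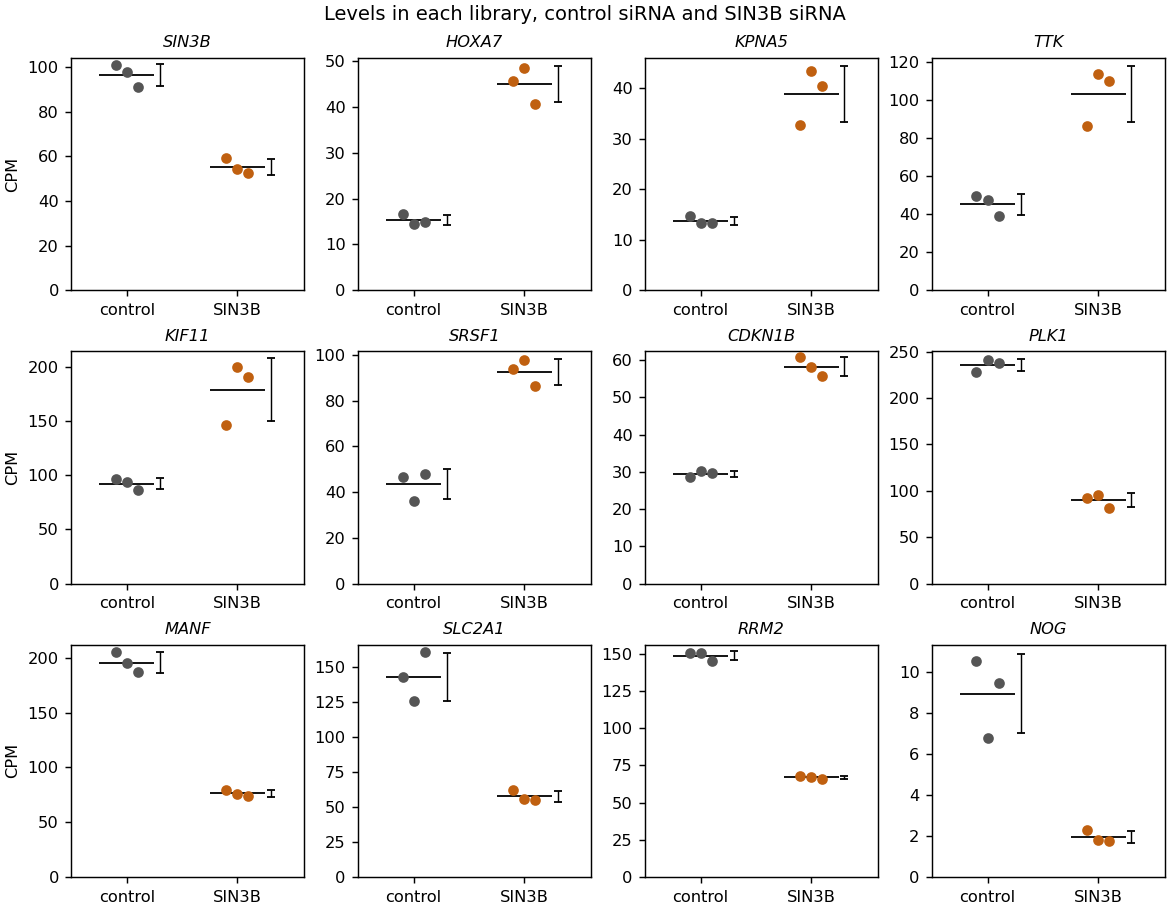
Level of 12 genes in each of the 6 libraries (y axis, CPM from 0; points are libraries, lines the mean of 3 and bars the SD). In all 12 panels the 3 SIN3B knockdown libraries lie on one side of the 3 control libraries; replicate 1 of the knockdown, the left point, is the lowest of its group for KPNA5, TTK and KIF11.

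As general background, an siRNA can also lower transcripts whose 3′ UTR pairs with the short seed of one of its strands. Annotated 3′ UTRs were therefore scanned for 7-base sequences that go with a lower fold change, after allowing for GC content and length. The 2 leading sequences were ACAGCCT and CAGCCTA, which overlap by 6 bases, and either of them counts below as a site. Of the 8 abundant transcripts with the largest falls, 7 held a site in the 3′ UTR, and NXN, the largest of these falls, held none. Of the 8 protein-coding genes among the 10 largest falls above 1 log2 CPM, 4 held a site, and NOG was among the 4 that did not. Of the 7 abundant holders, 6 are shown with the bases around the site to let these be compared. Each is the transcript strand, 5′ to 3′, from GENCODE 29, with the site in capitals.
PAK4 (19, 39179183 to 39179212): actgcacctggACAGCCTcctcttttctag
DAG1 (3, 49534479 to 49534508): aaagtttttatACAGCCTcaaattgtttta
PLK1 (16, 23690242 to 23690271): gtgtgggttctACAGCCTtgtccccctccc
MANF (3, 51389138 to 51389167): ttactcccaaaACAGCCTttttgtaattta
HMGA2 (12, 65966196 to 65966225): caataaacataACAGCCTctgtgatcccca
PRMT3 (11, 20508947 to 20508976): catatatgcagACAGCCTagttgattatct
All 6 genes lie on the plus strand of GRCh38. In PRMT3 the base after the capitals is an A, so both sequences stand there and count as 1 site.

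The share of genes with a site ran with the size of the change. Among 10967 genes above 2 log2 CPM with a searched 3′ UTR, 20% held a site. The share was 51.4% of 109 genes that fell at least 2-fold, 34.5% of 484 that fell 1.5- to 2-fold and 26.0% of 1635 that fell less. It was 18.8% of 6151 genes not called and 13.2% of 53 genes that rose at least 2-fold. The genes that rose had longer 3′ UTRs (median 1780 bases) than those that fell (1005 bases). The sequences were picked from these same fold changes, so the shares are a description with no test. The siRNA's own sequence was not used here, and the part of such sites in any fall was not tested. Without all genes that held a site, 2142 genes rose and 1991 fell of 13666 tested.

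Fold changes also ran with base composition. When genes were divided by transcript GC content into 5 groups of near-equal size, in the lowest group 44.3% rose and 3.79% fell, with a median log2 fold change of 0.281. In the highest group 4.16% rose and 26.4% fell, with a median of -0.159. The median GC content was 41.2% in genes that rose and 55.6% in genes that fell. When offsets for GC content and for exon length were put in the fit, 2338 genes rose and 2394 fell. Counts under these offsets are given beside the gene groups whose larger count they move by over 1.5 times and beside some others, and the part of GC content in the results was not tested.

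**Figure D3:**
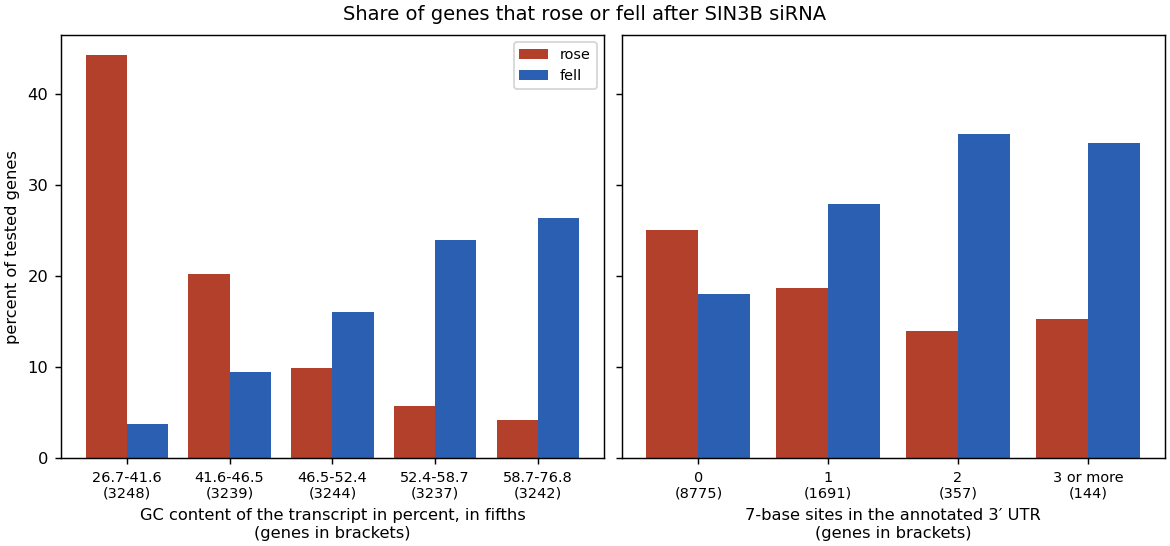
Percent of tested genes that rose (red) or fell (blue) by transcript GC content in 5 groups of near-equal size (left) and by number of 7-base sites in the 3′ UTR (right). The share that rose drops from 44.3% to 4.16% from the lowest to the highest GC group, and the share that fell goes from 18% with no site to 35.6% with 2 sites.

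Genes of mitosis rose as a broad group, with PLK1 as the main exception. Over 5 lists (cyclins and kinases, spindle checkpoint, centromere and kinetochore, kinesins and spindle proteins, cytokinesis) 63 of 95 tested members rose and 8 fell, with a median log2 fold change of 0.33. Under the GC and length offsets 55 rose and 8 fell, and in the 9-library fit 49 rose and 6 fell. The lists were chosen with earlier results of these data known, so their direction is described and not tested as a set. Over all tested genes 16.9% rose and 15.9% fell, the shares that each list count below can be set beside.

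Of 23 mitotic kinesins and spindle proteins 22 rose and 0 fell, with a median of 0.525, and the count was 22 under the offsets too. KIF11, the motor that pushes spindle poles apart, was at 96.2, 93.6 and 86.2 CPM in control and 146, 200 and 191 CPM in SIN3B knockdown libraries (log2 0.96 ± 0.08). ASPM, a spindle pole protein, went from 73.2, 65.9 and 68.0 to 127, 157 and 156 CPM (1.08 ± 0.07). In both genes every knockdown library was higher than every control, and replicate 1 rose least. KIF20B, a kinesin of late cytokinesis (1.09 ± 0.10), and TACC3, which stabilises spindle fibres (0.59 ± 0.04), rose as well. NUMA1, which anchors spindle poles and was named after its value was seen as the only member not called, was at -0.01, and at 0.14 under the offsets (edgeR adjusted p = 0.0196).

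Among 34 centromere and kinetochore genes 18 rose and 3 fell, and under the offsets 12 rose and 4 fell. The kinetochore proteins CENPF (0.85 ± 0.08) and CENPE (1.02 ± 0.10) and the cohesin protector SGO2 (1.18 ± 0.11) rose. ZWINT, which links the kinetochore to the checkpoint, fell by 0.38 ± 0.04, and NSL1, a subunit of the MIS12 complex, fell by 0.61 ± 0.07, each with a 7-base site. Of the genes in this list that rose, 2 hold a site as well. In the spindle checkpoint list 5 of 9 rose and 0 fell, and 2 of those that rose hold a site. TTK was at 49.5, 47.3 and 39.0 CPM in control and 86.5, 114 and 110 CPM in SIN3B knockdown libraries. BUB1 (0.38 ± 0.05), BUB1B (0.43 ± 0.06) and MAD2L1 (0.46 ± 0.06), all parts of the checkpoint, rose less.

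Of 10 genes of cytokinesis and the chromosomal passenger complex 7 rose and 0 fell. ECT2, an exchange factor that activates a small GTPase at the cleavage furrow, rose by 0.92 ± 0.07, the ring scaffold ANLN by 0.84 ± 0.07 and KIF23, a kinesin of the central spindle, by 0.67 ± 0.06. CDCA8, a passenger subunit, rose by 0.51 ± 0.06. Mitotic cyclins and kinases were more mixed, at 11 risen and 5 fallen of 19, and without SIN3B knockdown replicate 3 the number that rose was 7. Cyclin A2, CCNA2, was at 121, 123 and 122 CPM in control and 164, 167 and 166 CPM in SIN3B knockdown libraries (0.44 ± 0.05). AURKA, a spindle pole kinase (0.43 ± 0.05), and CKS2, a CDK accessory subunit (0.59 ± 0.05), rose, while CKS1B, its paralog, fell by 0.41 ± 0.07 and holds a site. Of the 8 mitotic genes that fell, 5 held a site, as did 4 of the 63 that rose and 12 of all 95. The sequences were picked from these same fold changes, so genes that fell tend to hold them by construction. The part of sites in these falls was not tested.

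**Figure D4:**
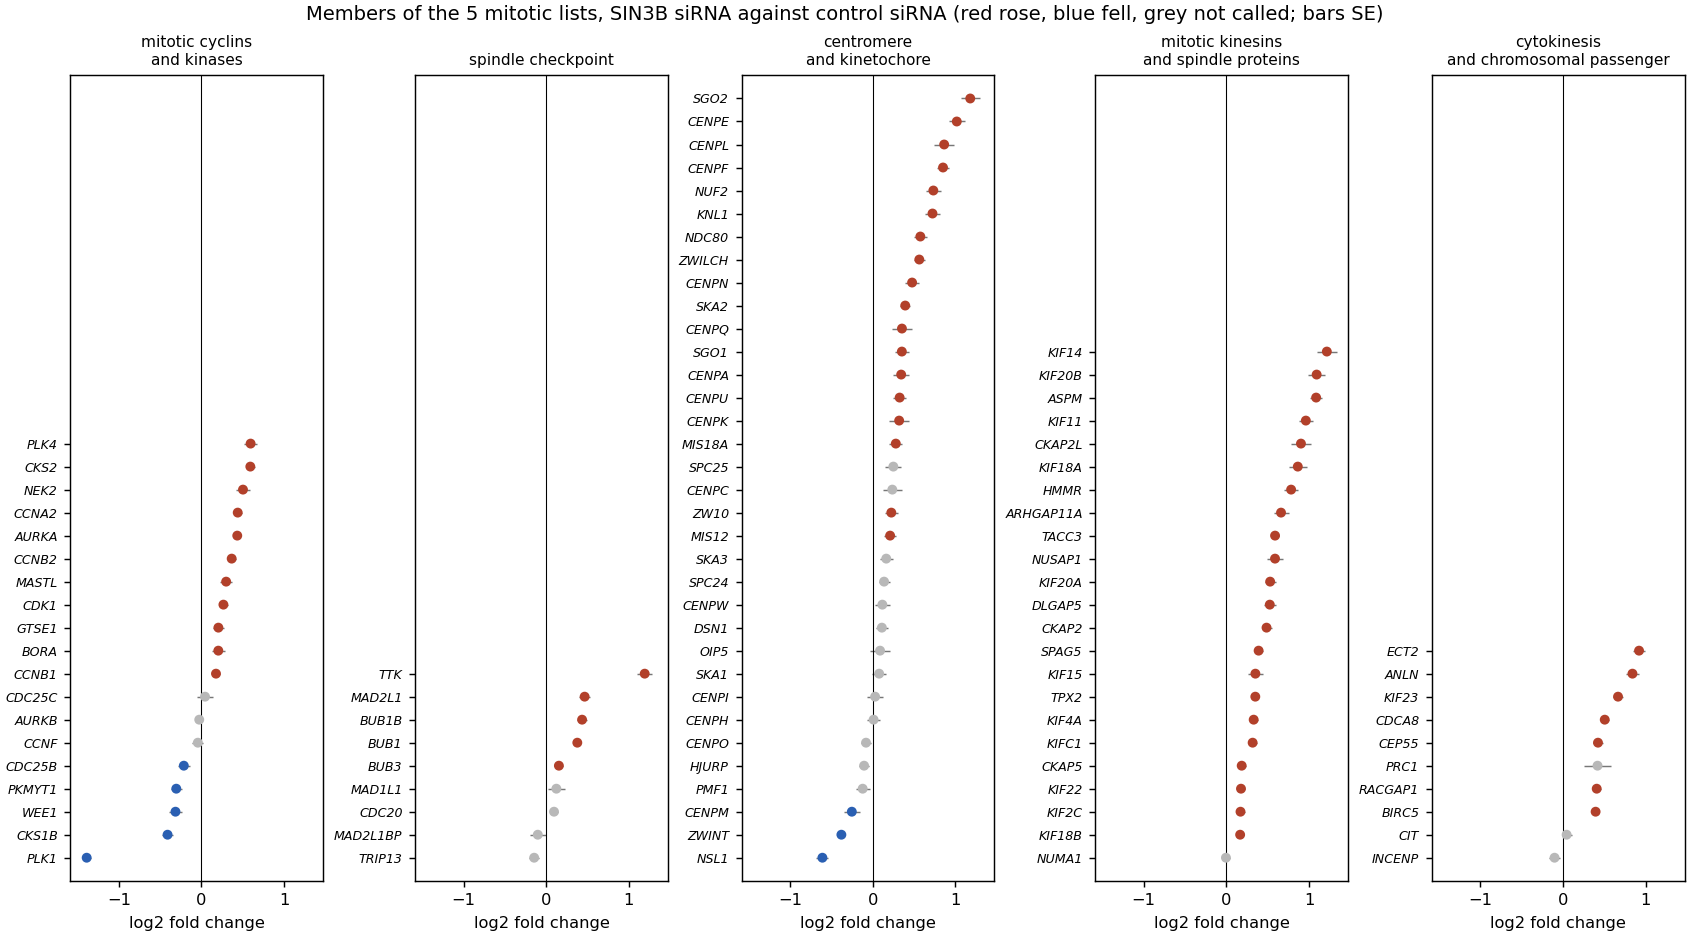
Log2 fold change (x axis, SIN3B siRNA minus control siRNA) of each tested member of the 5 mitotic lists, with bars for the SE. Red points rose, blue points fell and grey points were not called; 22 of 23 kinesins and spindle proteins lie to the right and are called, and PLK1 is the lowest point at -1.39.

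Promoters of these genes were compared because mitotic genes share known elements. The cell cycle homology region (CHR), bound by the MuvB core, has the letters TTTGAA, and the CCAAT box, bound by NF-Y, has the letters CCAAT. Both were searched on both strands in windows from 250 bases before to 50 after each start in RefSeq's promoter table (GRCh38.p14). Only genes with a single entry, on the matching chromosome, were kept, which left 8300 of the tested genes. TTTGAA stood in 63.4% of 71 promoters of the mitotic lists and in 9.22% of all 8300. CCAAT stood in 71.8% of the 71 and in 37.6% of all. Among the mitotic promoters TTTGAA was in 32 of the 48 of genes that rose and in 2 of the 3 of genes that fell, too few to compare the directions. The E2F element, searched as GCGGGAA, stood in 13 of 31 promoters of replication genes (41.9%), where 1 held TTTGAA, and in 10.7% of all. Across all 8300 promoters, TTTGAA stood in 12.5% of genes that rose, 6.36% of genes that fell and 8.95% of those not called. The other letters searched also stood more often in genes that rose than in genes that fell. The shares were 40.6% and 34.6% for CCAAT, and 12.6% and 9.35% for GCGGGAA. They were 16.0% and 11.1% for TGACGT, and 11.2% and 10.5% for CACGTG. A higher share in genes that rose was thus not particular to TTTGAA. Genes that rose also had a lower median transcript GC content, and its part in these shares was not tested.

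The promoters of 3 mitotic genes that rose and of PLK1, which fell, are shown to let the element be compared between both directions. The 3 had the lowest adjusted p among holders of the element, with genes on chromosomes 8 and 18 left out. Capitals mark TTTGAA, or TTCAAA where it is on the opposite strand, and each run ends 50 bases past the start.
ASPM (chr1:197146620-197146919, minus strand): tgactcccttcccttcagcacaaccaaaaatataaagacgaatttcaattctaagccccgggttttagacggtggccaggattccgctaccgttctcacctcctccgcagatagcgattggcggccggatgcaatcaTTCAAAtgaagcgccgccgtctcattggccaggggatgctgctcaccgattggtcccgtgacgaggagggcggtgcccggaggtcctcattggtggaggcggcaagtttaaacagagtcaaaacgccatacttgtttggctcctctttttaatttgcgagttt
KIF11 (chr10:92592880-92593179, plus strand): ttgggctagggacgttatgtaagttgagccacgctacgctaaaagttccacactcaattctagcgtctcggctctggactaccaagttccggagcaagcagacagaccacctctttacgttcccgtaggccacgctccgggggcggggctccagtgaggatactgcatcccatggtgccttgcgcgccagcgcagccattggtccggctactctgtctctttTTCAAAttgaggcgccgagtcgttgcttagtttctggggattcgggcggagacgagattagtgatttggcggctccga
CKS2 (chr9:89310945-89311244, plus strand): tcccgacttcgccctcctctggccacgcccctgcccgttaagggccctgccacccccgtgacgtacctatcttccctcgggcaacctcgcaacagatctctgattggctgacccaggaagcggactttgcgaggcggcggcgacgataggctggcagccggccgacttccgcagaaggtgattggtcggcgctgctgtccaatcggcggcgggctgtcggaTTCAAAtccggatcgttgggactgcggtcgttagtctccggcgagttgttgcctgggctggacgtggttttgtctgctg
PLK1 (chr16:23678639-23678938, plus strand): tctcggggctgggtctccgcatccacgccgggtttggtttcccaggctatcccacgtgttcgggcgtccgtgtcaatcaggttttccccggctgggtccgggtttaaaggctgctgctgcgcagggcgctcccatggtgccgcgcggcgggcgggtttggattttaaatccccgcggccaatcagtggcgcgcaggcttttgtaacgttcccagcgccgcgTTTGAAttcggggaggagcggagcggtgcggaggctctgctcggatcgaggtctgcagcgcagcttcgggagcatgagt
In KIF11, CKS2 and PLK1 the element begins 28 to 29 bases before the annotated start, and in ASPM it begins 113 bases before it.

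Genes that hold chromosomes together and shape them rose beside the mitotic genes. Of 23 cohesin and condensin genes 13 rose and 1 fell, with a median of 0.41, and under the offsets 8 rose and 0 fell, with a median of 0.13. The condensin ATPase SMC4 rose by 0.82 ± 0.07, the cohesin subunit STAG2 by 0.61 ± 0.06 and PDS5B, a cohesin regulator, by 0.74 ± 0.09. The anaphase-promoting complex, which degrades cyclins, had 4 of 18 members up and 0 down, or 22.2% and 0%, beside 16.9% and 15.9% of all genes. Its subunit CDC27 rose by 0.55 ± 0.06, and the call was lost with the GC and length offsets (0.13, edgeR adjusted p = 0.0503).

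Genes of the G1 to S transition fell more often than they rose. Of 18 G1 cyclins, kinases and E2F factors 3 rose and 8 fell, and 3 and 4 in the 9-library fit, while without site holders 2 rose and 5 fell of 13. E2F1, the activator of S phase genes, was at 104, 109 and 105 CPM in control and 55.9, 50.9 and 55.9 CPM in SIN3B knockdown libraries (-0.96 ± 0.06), and holds a site. Cyclin E1, CCNE1, without a site, went from 50.1, 46.5 and 52.9 to 26.6, 29.1 and 29 CPM (-0.82 ± 0.08). Every knockdown library of both genes was well under every control.

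Nucleotide synthesis genes fell in 10 of 26 members and rose in 2. RRM2, the regulated subunit of ribonucleotide reductase, was at 151, 150 and 145 CPM in control and 68.1, 67.0 and 66.0 CPM in SIN3B knockdown libraries (-1.15 ± 0.06, edgeR adjusted p = 1.65e-12), with no site. TK1, thymidine kinase, fell by 0.86 ± 0.06 and CAD, the first enzyme of pyrimidine synthesis, by 0.41 ± 0.05. Of 45 genes of replication origins and forks 7 rose (15.6%) and 12 fell (26.7%), beside 16.9% and 15.9% of all genes. The falls were 7 without SIN3B knockdown replicate 2 and 3 in the 9-library fit. The origin subunit ORC6, with sites, fell by 0.57 ± 0.08, while DBF4, which activates the origin kinase CDC7, rose by 0.92 ± 0.08.

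Among 7 CDK inhibitors 3 rose and 1 fell. CDKN1B, the inhibitor p27, was at 28.6, 30.2 and 29.7 CPM in control and 60.7, 58.2 and 55.7 CPM in SIN3B knockdown libraries (0.98 ± 0.08). CDKN1A, the inhibitor p21, went the other way, from 78.5, 73.2 and 75.2 to 51.8, 44.1 and 47.5 CPM (-0.66 ± 0.07), and holds a site. Of 29 p53 target genes 10 rose and 2 fell, and without site holders 6 rose and 1 fell of 24. CCNG1, cyclin G1, rose by 0.78 ± 0.05 and SESN2, a stress sensor upstream of mTORC1, by 0.43 ± 0.05, while TP53I11 fell by 0.75 ± 0.07. DNA damage checkpoint and repair genes gave 14 rises and 6 falls of 31, but 3 rises and 9 falls with the GC and length offsets and 7 rises in the 9-library fit. Without control replicate 1 the number that rose was 9, and without control replicate 3 or SIN3B knockdown replicate 2 or 3 it was 8.

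The partners of SIN3B changed in both directions. Of 18 SIN3 complex subunits 6 rose (33.3%) and 4 fell (22.2%), SIN3B included, beside 16.9% and 15.9% of all genes. Under the offsets 4 rose and 7 fell. HDAC1, the catalytic deacetylase, was at 272 ± 12 CPM in control and 353 ± 6.4 CPM in SIN3B knockdown libraries (0.38 ± 0.04), BRMS1L rose by 0.76 ± 0.09 and SUDS3, with a site, fell by 0.49 ± 0.06. Of 8 genes of the SIN3B-type complex and its KDM5 partners 4 rose and 2 fell. MORF4L1, a reader of methylated histone H3, rose by 0.42 ± 0.04, and KDM5B, a demethylase of the same histone with a site, fell by 0.36 ± 0.07.

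In the DREAM and MuvB list 3 of 13 rose and 3 fell, or 23.1% each way, beside 16.9% and 15.9% of all genes. MYBL2, the factor that joins MuvB to activate mitotic genes, was at 417, 412 and 420 CPM in control and 224, 195 and 211 CPM in SIN3B knockdown libraries (-0.99 ± 0.05, edgeR adjusted p = 2.22e-12), with no site. The MuvB subunits LIN9 (0.68 ± 0.08) and LIN54 (0.63 ± 0.10) rose. Polycomb genes, whose products deposit repressive marks on histones, rose in 8 of 28 and fell in 3. SUZ12, a core subunit of PRC2, rose by 0.92 ± 0.07 and BMI1, a PRC1 subunit, by 0.98 ± 0.09, while PHC2 fell by 0.39 ± 0.06.

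HOX genes had 5 rises and 8 falls of 37 (13.5% and 21.6%), beside 16.9% and 15.9% of all genes. With the GC and length offsets they had 10 rises and 7 falls. The HOXA cluster held genes that moved in both directions. HOXA9 rose from 99.5, 90.8 and 95.4 to 141, 143 and 129 CPM (0.53 ± 0.06), while HOXA13, at the end of the cluster, fell from 41.3, 45.5 and 59.9 to 26.1, 25.4 and 26.2 CPM (-0.91 ± 0.11). HOXD13, at the corresponding end of the HOXD cluster, fell by 0.45 ± 0.07.

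Several genes of BMP signalling fell. In the list of antagonists and targets 6 of 15 fell and 1 rose, and in that of ligands and receptors 6 of 17 fell and 2 rose. ID2, a target that blocks differentiation factors, was at 139, 138 and 152 CPM in control and 75.5, 72.7 and 74.2 CPM in SIN3B knockdown libraries (-0.95 ± 0.06), and ID3 went from 42.3, 44.1 and 41.6 to 19.5, 21.4 and 19 CPM (-1.10 ± 0.09). Neither holds a site. The ligand BMP2 fell by 0.92 ± 0.19 and SMAD5, a signal transducer with a site, by 0.60 ± 0.09, while SMAD7, an inhibitor of the pathway, rose by 0.47 ± 0.12. Of the ligands and receptors 3 fell under the offsets, 3 without SIN3B knockdown replicate 2 and 3 of 11 without site holders.

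Notch and Hippo genes fell in 12 of 27 and rose in 4. The receptor NOTCH3 was at 75.1, 74.5 and 76.4 CPM in control and 40.3, 35.2 and 35.1 CPM in SIN3B knockdown libraries (-1.03 ± 0.07). NOTCH2 fell by 0.64 ± 0.05, and of the ligands DLL1 fell by 1.09 ± 0.14 and JAG2 by 0.60 ± 0.09, the last pair with a site each. In the Hippo branch the kinase gene STK3 rose by 0.73 ± 0.12. RBPJ, the DNA-binding partner of Notch, rose by 0.36 ± 0.07, a call that the GC and length offsets removed (0.02, edgeR adjusted p = 0.884).

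Immediate early genes, which answer growth signals within minutes, fell in 14 of 26 and rose in 0, with a median of -0.41 and 11 falls under the offsets. JUNB fell by 0.75 ± 0.09, JUN by 0.39 ± 0.05 and SRF, a factor that drives many of them and holds a site, by 0.49 ± 0.06. MYC went from 181, 172 and 193 to 114, 115 and 121 CPM (-0.64 ± 0.05). In the MYC, MAX and MXD network 4 of 9 fell and 0 rose, and without site holders 2 of 6 fell. MAX, the shared partner, fell by 0.40 ± 0.06, and MXD4 (-0.58 ± 0.07) and MXI1 (-0.77 ± 0.10), repressors that bring SIN3 to DNA, fell too.

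**Figure D5:**
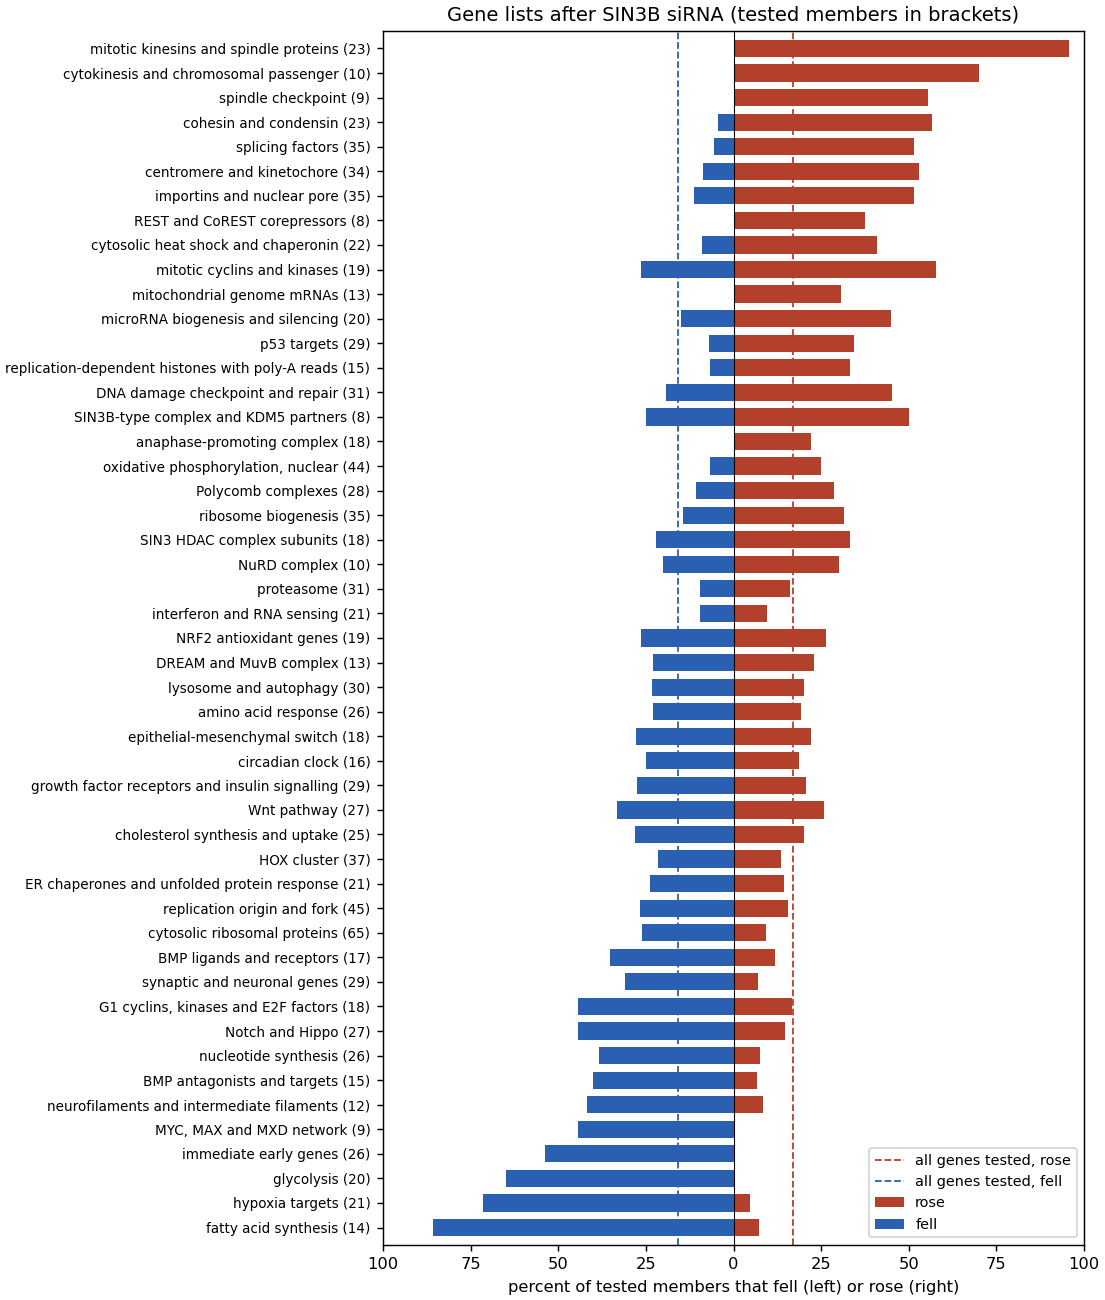
Percent of tested members that rose (red, to the right) or fell (blue, to the left) in each list with at least 8 tested members. Dashed lines mark the shares over all 16216 genes, 16.9% for rises and 15.9% for falls; kinesins and spindle proteins stand at the top, and glycolysis, hypoxia and fatty acid synthesis at the bottom.

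Most genes of the glycolysis, hypoxia and fatty acid synthesis lists fell, while cholesterol genes were split. Of 20 glycolysis genes 13 fell and 0 rose, and under the offsets 10 fell and 1 rose. SLC2A1, the main glucose transporter of dividing cells, was at 142, 126 and 160 CPM in control and 62.2, 55.5 and 54.9 CPM in SIN3B knockdown libraries (-1.31 ± 0.08), with no site. GAPDH, often taken as a reference transcript, fell by 0.42 ± 0.03 to 74.9% of its control level, ENO2 by 0.62 ± 0.07 and ENO1 by 0.22 ± 0.03. Targets of hypoxia-inducible factor fell in 15 of 21 and rose in 1, with a median of -0.49, and 17 fell and 0 rose under the offsets. DDIT4, an inhibitor of mTORC1 (-0.84 ± 0.08), and PFKFB3, which drives glycolytic flux (-0.71 ± 0.08), were among them.

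Of 14 genes of fatty acid synthesis 12 fell and 1 rose, with 8 falls under the offsets. Of the list, 7 of 14 hold a site, and without those 6 of 7 fell. Fatty acid synthase, FASN, without a site, was at 564, 587 and 564 CPM in control and 414, 396 and 394 CPM in SIN3B knockdown libraries (-0.51 ± 0.04). The desaturase SCD (-0.29 ± 0.04) and FADS1 (-0.64 ± 0.06), with sites, fell, and the elongase ELOVL5 rose by 0.34 ± 0.05. The cholesterol list had 5 rises and 7 falls of 25 (20% and 28%), beside 16.9% and 15.9% of all genes. SC5D, a late enzyme of the pathway, rose by 0.57 ± 0.08.

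Many genes of RNA processing and nuclear transport rose. Of 35 splicing factors 18 rose and 2 fell, beside 16.9% and 15.9% of all genes, and 16 and 6 did under the offsets. SRSF1, a regulator of exon inclusion, was at 46.7, 36.0 and 48.0 CPM in control and 93.8, 97.7 and 86.5 CPM in SIN3B knockdown libraries (1.09 ± 0.09), and SON rose by 0.54 ± 0.04. Of 35 importin and nuclear pore genes 18 rose and 4 fell, but 10 and 7 under the offsets. Beside KPNA5, KPNA3 (0.72 ± 0.07) and IPO7 (0.60 ± 0.05) rose, while the importin alpha KPNA6 (-0.44 ± 0.05) and the pore protein NUP210 (-0.48 ± 0.05) fell. MicroRNA biogenesis and silencing genes rose in 9 of 20 and fell in 3, among them DICER1, which cuts precursors (0.63 ± 0.07), and TNRC6B, which carries out silencing (0.59 ± 0.06); under the offsets 6 rose.

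Neuronal and filament genes fell in part. Of 12 intermediate filament genes 5 fell and 1 rose: INA, alpha-internexin with a site, by 1.2 ± 0.08 and the neurofilament NEFL by 0.79 ± 0.07, while LMNB1, lamin B1, rose by 0.43 ± 0.06. Of 29 synaptic and neuronal genes 9 fell and 2 rose, and in the 9-library fit 7 fell and 0 rose. In that same fit 16 fell and 0 rose in the SIN3A knockdown, which shares the control libraries. SYP, a synaptic vesicle protein, was at -0.53 ± 0.10 after SIN3B siRNA and at -1.65 after SIN3A siRNA. The direct contrast of the knockdowns placed SYP higher after SIN3B siRNA (1.11 on the log2 scale, edgeR adjusted p = 1.12e-06).

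Genes of the ribosome and the proteasome moved little. Of 65 cytosolic ribosomal protein genes 6 rose and 17 fell with a median of -0.02. The offsets turned this to 17 rises and 10 falls, the 9-library fit called 1 rise and 0 falls, and without control replicate 3 or SIN3B knockdown replicate 2 the falls were 9 and 10. Of 31 proteasome genes 5 rose and 3 fell, or 16.1% and 9.68% beside 16.9% and 15.9% of all genes (10 and 2 under the offsets). PSMD4, a ubiquitin receptor of the proteasome that holds a site, stood apart from them, from 221, 234 and 226 to 113, 105 and 104 CPM (-1.08 ± 0.05).

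A direct contrast with the SIN3A knockdown showed where levels differed between the knockdowns; the control libraries do not enter its fold changes but share in its estimate of the spread. Of 16686 genes in the 9-library fit, 2109 were higher and 2408 lower after SIN3B than after SIN3A siRNA. Of the 95 mitotic genes 53 were higher and 5 lower, beside 13% and 14.8% of the 16216 genes tested in both fits. Several cell cycle genes moved in opposite directions from control. CCNE1 was at 26.6 to 29.1 CPM after SIN3B siRNA and at 96.9 to 105 CPM after SIN3A siRNA, with control libraries between them (difference -1.83 ± 0.09, edgeR adjusted p = 7.01e-11). CDKN1A was at 44.1 to 51.8 against 122 to 147 CPM (-1.53 ± 0.09). PLK1 was lower by 1.27 ± 0.08 after SIN3B siRNA and HOXA7 higher by 0.82 ± 0.10, whereas CDKN1B differed by 0.17 ± 0.11 (edgeR adjusted p = 0.261). Against control in the same fit, HOXA7 (0.73 ± 0.11) and EIF5A2 (2.01 ± 0.19) also rose after SIN3A siRNA. PLK1 and KPNA5 were not called there. Of the largest falls above 5 log2 CPM, NXN rose after SIN3A siRNA (0.34 ± 0.10) and the others were not called. 

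Markers of the cell line and of other cell types were compared in the same libraries. The 8 markers of HEK293 cells summed to 1550 to 1670 CPM in control and 1380 to 1430 CPM in SIN3B knockdown libraries. Of the 8, 3 rose and 2 fell, with a median log2 fold change of 0.02, and NEFM fell by 0.83 ± 0.06. The 7 epithelial markers summed to 19 to 20.2 against 16.4 to 19.1 CPM, and the 8 haematopoietic markers to 3.18 to 4.52 against 3.10 to 5.61 CPM. Of 6 hepatocyte and 6 squamous markers, 4 and 5 were at 0 in all 6 libraries. In the 6-library edgeR fit 0 of 11 tested genes of the epithelial, squamous, fibroblast, haematopoietic and hepatocyte lists were called, and 1 had an unadjusted p under 0.05. Of the 2 tested fibroblast markers, 1 was called as fallen by DESeq2, with a minimum count of 40 and with counts divided by 4. Under the GC and length offsets 1 of the 2 was called as risen.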

How the data were processed

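Poly-A RNA of 9 HEK293T libraries was sequenced, and the 6 from control and SIN3B siRNA were compared. The submitters' processing notes name Trimmomatic 0.36, HISAT2 2.1.0, HTSeq, DESeq2 1.20.0 and GRCh38. The authors deposited raw counts per gene, and whether counting used strand is not given in the sources used here, so overlapping and antisense genes may share reads. Nonzero counts were multiples of 4 in 98% or more of cases. The SE printed with a log2 fold change comes from the edgeR fit and includes the scatter between libraries. A deposited FPKM table was not used.

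Genes were kept by edgeR's filterByExpr (minimum count 10), scaled by TMM and tested with edgeR 4.0.16 (R 4.3.3) by quasi-likelihood, two-sided, with Benjamini-Hochberg adjustment over all genes and a threshold of 0.05. The SIN3B to SIN3A contrast used 1 fit of all 9 libraries. The scripts were tested on simulated data. The alternatives comprised DESeq2 1.42.0, 2 other scalings, other filters on low counts, a replicate block, a division of the counts by 4, a GC and length offset, removal of genes with a 7-base site, and removal of each library.

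Named genes were SIN3B, SIN3A, HOXA7, NOG and PLK1, the largest non-overlapping changes above 1 and above 5 log2 CPM, and from each list the 4 members of lowest adjusted p and up to 2 against the majority; not all are printed. The 56 lists and the members were chosen with earlier results of these data known. With 4 deposited counts taken as 1 counting unit, replicates of a group differed by more than sampling noise. Chi-square per degree of freedom, from counts divided by 4 in genes above a minimum count, was 1.46 to 2.07 within the control and SIN3B knockdown groups. Within SIN3A knockdown it was 3.77 to 7.97. Why the deposited counts are multiples of 4 is not known. Site and promoter sequences came from GENCODE 29 annotation on GRCh38 and from RefSeq (GRCh38.p14).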

Additional observations from a re-analysis of the deposited data

How the results depend on the processing

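Over 16 alternatives the number of genes that rose ranged from 2005 in the 9-library fit to 3195 with DESeq2, against 2734. The number that fell ranged from 1929 in the 9-library fit to 3040 with upper-quartile factors, against 2583. Upper-quartile factors moved the share of rises among calls from 51.4% to 43.0% and the median of all genes from -0.014 to -0.053. Leaving out each library in turn gave 2157 to 2607 rises and 2025 to 2464 falls. Of 118 called genes named above, 116 kept the call in every alternative in which they were tested, and CDC27 and RBPJ lost it with the GC and length offsets. NUMA1 changed sign there, from -0.01 to 0.136 (edgeR adjusted p = 0.0196). Of 1824 list counts, 1653 stayed within 1.5 times. Counts of 0 that stayed at 0 are among these, and the 5 mitotic lists together were counted beside each of them. Deviations from the group mean in same-numbered control and SIN3B libraries had correlations of -0.165, -0.00821 and -0.0676 over 10406 genes. Differently numbered libraries had -0.108 to 0.155. With deviations taken within such small groups, these values cannot show whether same-numbered libraries were made together. With the replicate block 2506 genes rose and 2418 fell. With 3 libraries a group, small changes in genes of low count were not detectable at this depth.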

Other observations

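Transcript classes differed in direction. Of 921 antisense genes tested 22 rose and 60 fell, and of 695 lincRNA genes 23 rose and 47 fell, whereas of 13338 protein-coding genes 2642 rose and 2405 fell. Since the strand setting of the counting is unknown, reads of an antisense gene and its partner cannot be told apart. Replication-dependent histone genes with poly-A reads rose in 5 of 15 and fell in 1, and in the 9-library fit 3 rose and 0 fell. Cytosolic chaperone genes rose in 9 of 22 and fell in 2, but 1 rose and 1 fell in the 9-library fit. Of the chaperone genes 5 rose with the GC and length offsets, and 5 without control replicate 1, control replicate 3 or SIN3B knockdown replicate 2.

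The share of called genes varied by chromosome. On chromosome 13, 27.3% of tested genes rose and 8.19% fell, while on chromosome 22 7.35% rose and 18.5% fell. Chromosomes also differ in GC content, and its part in these shares was not tested.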
